A study of Harpegnathos saltator with 12 samples.

Results

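The ionotropic receptor (Ir) co-receptor genes of the ant Harpegnathos saltator were taken by name, as the 4 genes HsIr8a, HsIr25a.1, HsIr25a.2 and HsIr76b of 14407 genes in the count tables. They are 4 of the 23 genes there named HsIr, and HsIr25a.1 and HsIr25a.2 are a pair of Ir25a genes. Each was followed in 12 libraries of antennal polyA RNA, which the study describes as from adult ants. The ants were homozygotes for a mutation in orco (7 libraries, genotype given as orco_homozygote), heterozygotes with 1 mutant copy (3 libraries, orco_heterozygote), or wild type (2 libraries, wt). Together the heterozygotes and wild type are called controls. The labels give no further allele, no age and no number of ants per library, so p-values measure only the spread between these libraries. The mutation is carried in every cell of the animal, and the RNA is of whole antennae. Because it is pooled over cell types, a change in 1 cell type cannot be separated from a change in the others.

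Irs are ligand-gated ion channels related to the glutamate receptors of synapses. A sensory neuron makes a tuning Ir, which sets the ligand, together with a co-receptor, which is needed to carry the complex to the sensory cilium and to form the channel. In Drosophila, Ir8a serves mainly acid-sensing receptors, Ir76b serves receptors for amines, salts and amino acids, and Ir25a is the broadest of them, with roles in odor, taste, humidity and temperature sensing. In insects they work beside the odorant receptors (Ors), whose single co-receptor is Orco.

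Sequencing batch 1 held 1 library of each genotype (homozygote replicate 1, heterozygote replicate 1 and wild-type replicate 2), and batch 2 held the other 9. Between 4.11 M and 23.2 M reads per library were assigned to genes. HsOrco transcripts, the check of the labels, were at 13.6 to 157 CPM in the 7 homozygote libraries, against 1669 to 2552 CPM in heterozygotes and 2277 to 2768 CPM in wild type. CPM are gene-assigned counts scaled to a library of 1 M after TMM normalization, a correction for differences in RNA composition. No homozygote library overlapped a control for HsOrco. Heterozygotes and wild type did overlap, so HsOrco does not check those labels against each other. Homozygote replicate 5 had the most HsOrco RNA of its group and was also the deepest library.

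HsIr25a.1 was the co-receptor with the greatest spread between genotypes. It was at 6.39, 11.6 and 16.3 CPM in homozygotes (lowest, median and highest of 7), at 10.1, 6.75 and 6.27 CPM in heterozygote replicates 1, 2 and 3, and in wild type replicate 1 had 1.83 CPM and replicate 2 had 2.61 CPM. Both wild-type libraries were below each library with a mutant copy, while the homozygotes and heterozygotes overlapped. Wild-type replicates 1 and 2 rested on 26 and 12 reads, with Wilson 95% intervals of 1.25 to 2.69 and 1.49 to 4.56 CPM, which cover counting error only. Even the higher bound stayed under the lowest library with a mutant copy.

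HsIr25a.2 was ordered in the same way. Its level was 21.8, 36.3 and 54.4 CPM in homozygotes (lowest, median and highest), 37.0, 23.9 and 18.9 CPM in heterozygote replicates 1, 2 and 3, and 10.8 (replicate 1) and 15.4 CPM (replicate 2) in wild type. Here too, both wild-type libraries lay below all 10 others, and heterozygote replicate 1 was as high as the middle of the homozygote range. Homozygote replicate 1 and heterozygote replicate 1, both of batch 1, were the highest of their groups for both Ir25a genes.

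HsIr8a followed another order. It was at 54.2, 73.3 and 115 CPM in homozygotes (lowest, median and highest), at 63.4, 45.7 and 54.3 CPM in heterozygote replicates 1, 2 and 3, and at 73.4 (replicate 1) and 97.8 CPM (replicate 2) in wild type. The heterozygotes were lowest and did not overlap wild type. Of the 7 homozygote libraries, 6 were above every heterozygote, and the homozygote and wild-type ranges overlapped.

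HsIr76b varied least. It was at 8.11, 11.3 and 12.1 CPM in homozygotes (lowest, median and highest), at 10.9, 8.67 and 9.69 CPM in heterozygote replicates 1, 2 and 3, and at 7.62 (replicate 1) and 7.60 CPM (replicate 2) in wild type. All 10 libraries with a mutant copy lay above both wild-type libraries, although the closest, homozygote replicate 6, was separated from them by less than the counting error of wild-type replicate 2, whose 35 reads gave an interval of 5.47 to 10.6 CPM.

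**Figure D1:**
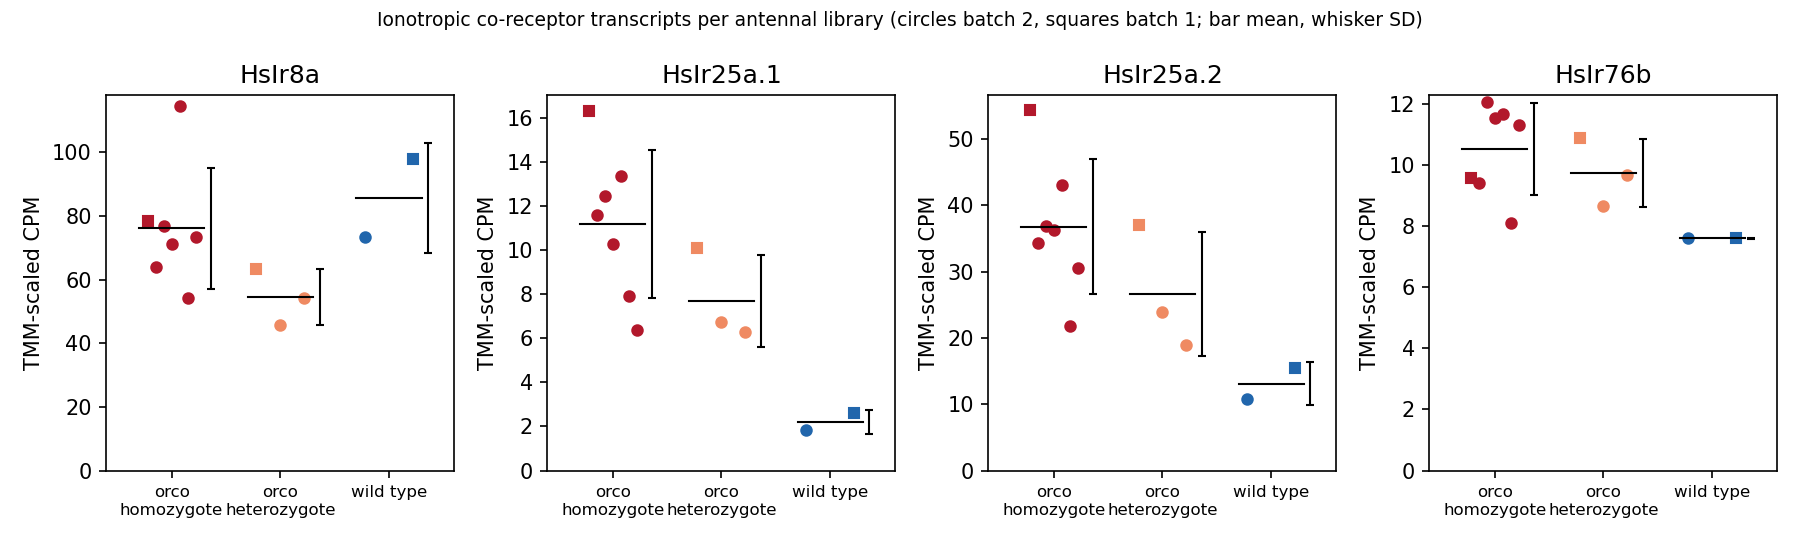
TMM-scaled counts per M reads, CPM (linear axis starting at 0) of the 4 co-receptor genes in the 12 antennal libraries, by orco genotype. Each point is a library, squares mark batch 1 and circles batch 2, the bar is the group mean and the whisker the SD; wild-type libraries are the lowest for HsIr25a.1, HsIr25a.2 and HsIr76b, and heterozygotes are lowest for HsIr8a, with homozygote replicate 5 at 115 CPM.

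Within a genotype, the SD as a share of the mean in homozygotes was 24.9% for HsIr8a, 29.9% for HsIr25a.1, 27.7% for HsIr25a.2 and 14.2% for HsIr76b. The group means kept the order homozygote, heterozygote, wild type within each batch for both Ir25a genes. In batch 2, HsIr25a.1 was at 10.3, 6.51 and 1.83 CPM in homozygotes, heterozygotes and wild type, and in batch 1, with 1 library of each, at 16.3, 10.1 and 2.61 CPM. HsIr25a.2 was at 33.8, 21.4 and 10.8 CPM in batch 2 and at 54.4, 37.0 and 15.4 CPM in batch 1, in the same order of genotypes. HsIr8a was lowest in heterozygotes in both batches.

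The comparison of homozygotes with wild type asks how each gene differed where both orco copies were mutant. The genes were fitted with edgeR's quasi-likelihood test, and p-values were adjusted by Benjamini-Hochberg over 10740 genes, of which 44.8% were called (19.1% higher and 25.8% lower). HsIr25a.1 and HsIr25a.2 were called, and HsIr8a and HsIr76b were not. HsIr25a.1 rose by 2.55 log2 units (SE 0.32, adjusted p = 1.1e-04, edgeR), a 5.84-fold difference, and was above both wild-type libraries in 7 of 7. HsIr25a.2 rose by 1.73 log2 units (SE 0.24, adjusted p = 2.2e-04), or 3.31-fold, also in 7 of 7. For HsIr76b the value was 0.48 (95% interval 0.042 to 0.92, adjusted p = 0.070), and for HsIr8a it was -0.07 (interval -0.60 to 0.46, adjusted p = 0.84). Leaving out homozygote replicate 6 brought HsIr76b to an adjusted p of 0.048 at 0.47.

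The comparison of heterozygotes with wild type asks whether a single mutant copy goes with a change. The study describes its heterozygote and homozygote females as daughters of heterozygous mothers and mutant males, a cross that gives no wild type. In both comparisons with wild type, mutant copies therefore cannot be told apart from family or colony. In it 17.8% of the tested genes were called (9.71% higher and 8.14% lower). HsIr25a.1 rose by 1.87 (SE 0.34, adjusted p = 0.0043) and HsIr25a.2 by 1.10 (SE 0.25, adjusted p = 0.014), on the log2 scale, and each was above wild type in 3 of 3 libraries. HsIr25a.2 lost the call without the batch term (1.03), in batch 2 alone (0.99) and with the heterozygote and wild-type libraries alone (1.05). Without wild-type replicate 1, neither was called, at 1.95 for HsIr25a.1 (adjusted p = 0.061) and 1.22 for HsIr25a.2 (adjusted p = 0.091), and HsIr25a.1 was also not called with those groups alone (1.82, adjusted p = 0.057). HsIr8a had a value of -0.61 (95% interval -1.18 to -0.036, adjusted p = 0.13), and passed only without homozygote replicate 5 (-0.59, adjusted p = 0.032). HsIr76b was at 0.35 (interval -0.12 to 0.83, adjusted p = 0.27).

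Between homozygotes and heterozygotes, which differ in the second copy, 23% of genes were called (6.82% higher and 16.2% lower). HsIr25a.2 was the only co-receptor called, at 0.62 log2 units (SE 0.19, adjusted p = 0.034), higher than the heterozygote mean in 6 of 7 libraries. The call was lost without any of heterozygote replicates 1, 2 and 3 or homozygote replicates 1, 2, 3 and 4, with values between 0.51 and 0.71 over the left-out libraries. HsIr25a.1 was at 0.67 (95% interval 0.17 to 1.17, adjusted p = 0.055). It passed without homozygote replicate 7 (0.75, adjusted p = 0.016). HsIr8a was at 0.54 (interval 0.086 to 0.99, adjusted p = 0.083), and passed with homozygote replicate 5 left out (0.41, adjusted p = 0.045). HsIr76b was at 0.12 (interval -0.23 to 0.48).

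Set against the average of heterozygotes and wild type, homozygotes had 43.9% of genes called (18.8% higher, 25% lower). Both Ir25a genes were called higher, with 5 homozygote libraries above every control for HsIr25a.1 and 2 for HsIr25a.2, and the other co-receptors were not called. HsIr8a and HsIr76b were positive, with intervals of -0.16 to 0.63 and -0.015 to 0.62. The median over the 4 genes was 0.74, against -0.04 over all genes tested.

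**Figure D2:**
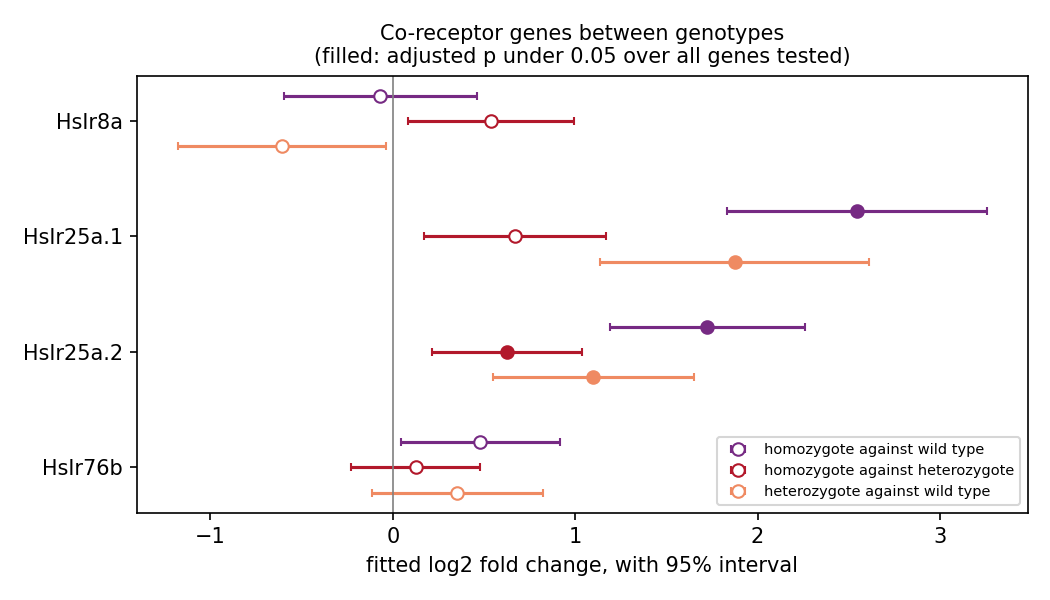
Fitted log2 fold changes (points) with 95% intervals (bars) of the 4 co-receptor genes in the 3 pairwise genotype comparisons, with positive values meaning higher in the genotype named first. Filled points passed an adjusted p of 0.05, and the intervals of HsIr8a lie below 0 between heterozygotes and wild type and above 0 between homozygotes and heterozygotes.

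Whether the change from wild type to heterozygote differed from the change from heterozygote to homozygote was tested directly in the same fit, a contrast chosen after the values were seen. For HsIr25a.1 the second step was smaller than the first by 1.20 log2 units (95% interval of the difference -2.23 to -0.18), and for HsIr8a it was larger by 1.15 (interval 0.25 to 2.05). Neither passed, with adjusted p of 0.11 and 0.086 in edgeR, where 15.7% of all genes tested were called. DESeq2 called HsIr8a in that contrast, at 1.21, and edgeR did without homozygote replicate 5 (1.01, adjusted p = 0.023). HsIr25a.2 and HsIr76b had differences of -0.48 and -0.23, with intervals that covered 0.

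The ratio of 2 genes within a library does not depend on depth or scaling, and asks whether the co-receptors changed unequally. The log2 ratio of HsIr25a.1 to HsIr8a averaged -2.79 ± 0.42 in homozygotes (SD, n = 7), -2.83 ± 0.24 in heterozygotes (n = 3) and -5.23 ± 0.09 in wild type (n = 2). That of HsIr25a.2 to HsIr8a averaged -1.06, -1.08 and -2.71 in the same order of groups. For both ratios, the libraries with a mutant copy and the wild-type libraries did not overlap, and homozygotes and heterozygotes did.

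The ratio of HsIr25a.1 to HsIr25a.2 showed the same split. It averaged -1.72 ± 0.26 in homozygotes, -1.76 ± 0.15 in heterozygotes and -2.53 ± 0.01 in wild type, so there were 0.17 counts of HsIr25a.1 per count of HsIr25a.2 in both wild-type libraries, against 0.21 to 0.36 in homozygotes and 0.27 to 0.33 in heterozygotes. Neither mutant genotype overlapped wild type on this measure. The smallest p an exact two-sided permutation test can give here is 0.20 with 3 against 2 libraries and 0.056 with 7 against 2, and those were the values found, so no call is possible at 0.05.

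The ratio of HsIr76b to HsIr8a was the one that separated homozygotes from heterozygotes. It averaged -2.83 ± 0.24 in homozygotes, -2.47 ± 0.07 in heterozygotes and -3.46 ± 0.29 in wild type, and all 7 homozygotes were below all 3 heterozygotes. The exact two-sided permutation p was 0.017, the smallest those group sizes allow, and 0.14 after adjustment over the 12 ratio tests. None of the 12 passed. The ratios of either Ir25a gene to HsIr76b were higher in homozygotes than in controls by 0.97 and 0.62 log2 units, with p of 0.035 and 0.030 by the same exact test and 0.14 after adjustment.

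**Figure D3:**
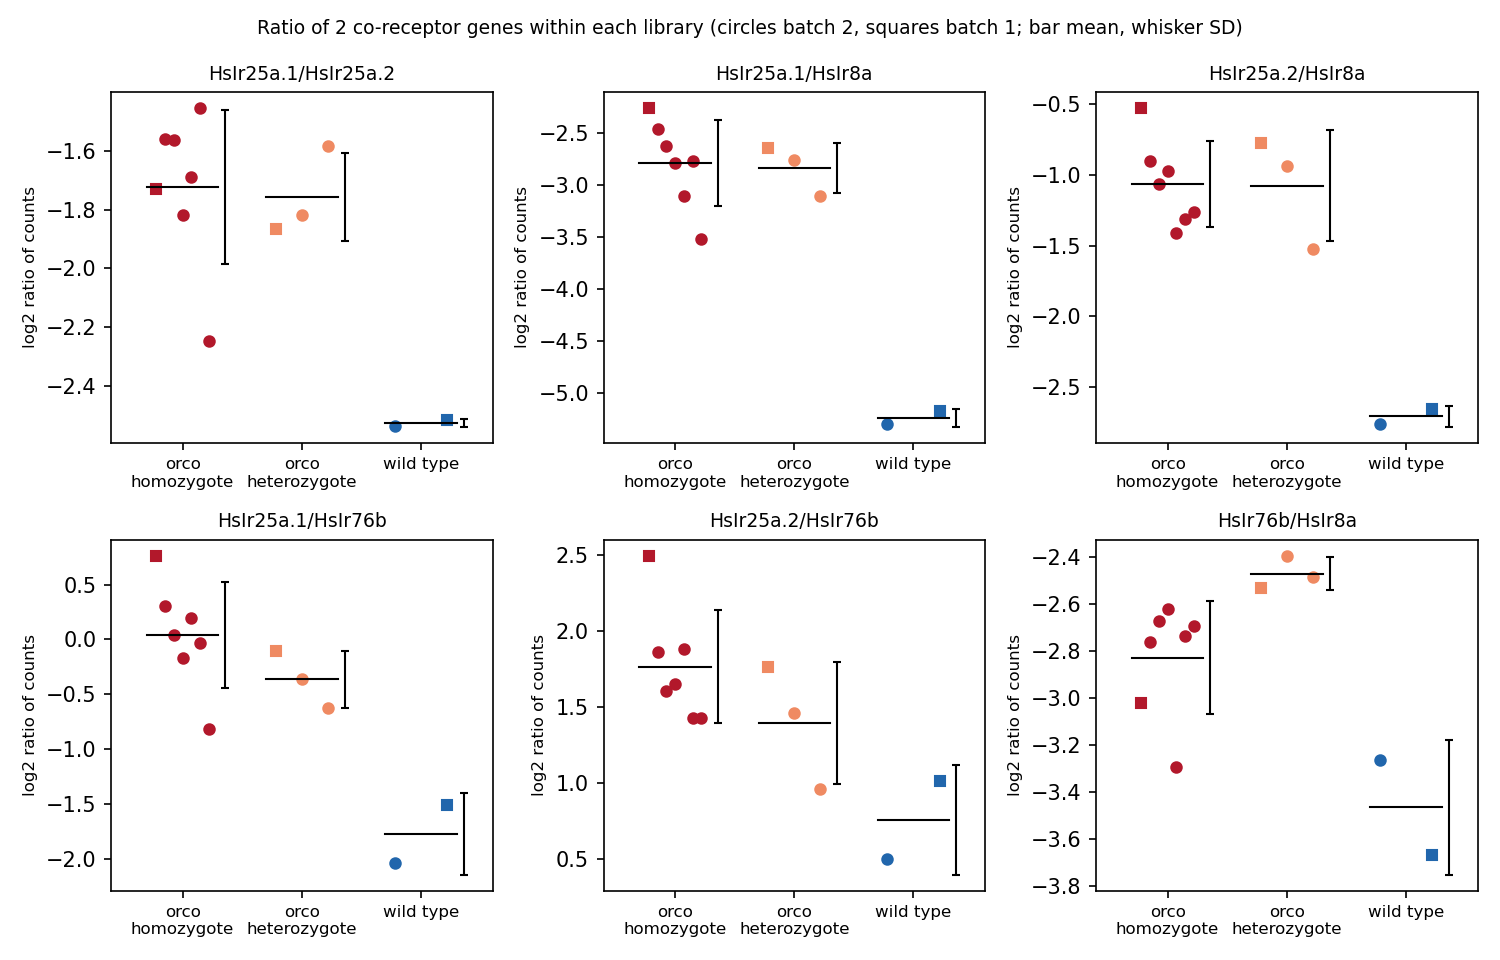
Log2 ratio of the counts of 2 co-receptor genes within each library (linear axes that do not start at 0), by orco genotype; squares mark batch 1, circles batch 2, bars the mean and whiskers the SD. In the HsIr25a.1 to HsIr8a panel homozygotes and heterozygotes average -2.79 and -2.83 and wild type -5.23, and in the HsIr76b to HsIr8a panel all heterozygotes lie above the homozygotes.

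Levels among the 7 homozygote libraries were compared next, over 10 relations, since only this genotype has enough libraries. HsIr25a.1 and HsIr25a.2 had the closest relation among the co-receptors (Pearson r = 0.83, Spearman rho = 0.93, exact permutation p = 0.024 and 0.0067), with adjusted p of 0.12 and 0.060, and r was 0.91 without the libraries farthest from the median. HsIr25a.1 and HsIr76b had r = 0.12. By Pearson's r, the closest of the 10 was that of HsIr8a with HsOrco (r = 0.94, rho = 0.86, exact permutation p = 0.0056 and 0.024, adjusted p = 0.056 and 0.060), which had r = 0.61 without homozygote replicates 5 and 6 and so rests on them. In batch 2 alone (n = 6), r was 0.95 for HsIr8a with HsOrco and 0.72 for the Ir25a pair. HsIr25a.2 with HsOrco had r = 0.60 over the 7 libraries (exact permutation p = 0.15, adjusted p = 0.21) and r = 0.80 in batch 2 (exact permutation p = 0.0028, adjusted p = 0.028). Over the 7 its rho was 0.89 (exact permutation p = 0.012, adjusted p = 0.060), and r was 0.92 without homozygote replicates 1 and 6. By the same rank measure, HsOrco had rho = 0.82 with HsIr25a.1 and 0.79 with HsIr76b (exact permutation, adjusted p = 0.068 and 0.080). In batch 2, HsIr8a with HsIr25a.2, with HsIr76b and with HsOrco, and HsIr25a.1 with HsOrco, each had an adjusted p of 0.05 by the same exact test, which is not under the threshold. Without homozygote replicates 5 and 6, r fell from 0.83 to 0.11 for HsIr8a with HsIr25a.2 and from 0.95 to 0.57 with HsOrco. It was 0.96 for HsIr8a with HsIr76b. For HsIr25a.1 with HsOrco, r was 0.83 without homozygote replicates 6 and 7.

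**Figure D4:**
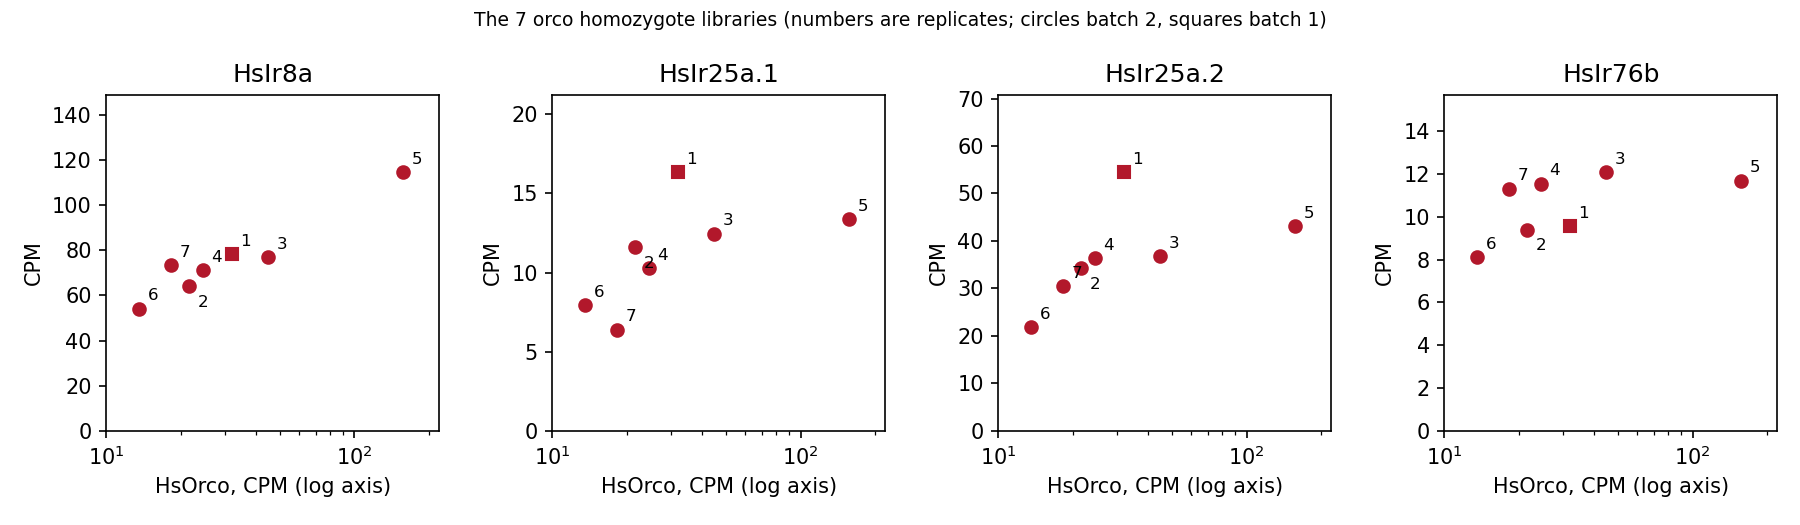
Level of each co-receptor gene (linear axis from 0, CPM) against HsOrco (log axis, CPM) in the 7 homozygote libraries, numbered by replicate; squares mark batch 1 and circles batch 2. Replicate 5, with 157 CPM of HsOrco, has the highest HsIr8a, and replicate 1 the highest level of both Ir25a genes.

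Over all 12 libraries, the levels of the Ir25a genes followed each other (r = 0.95 across libraries of log2 CPM, given as a description since the genotypes form clusters). Of 10739 other tested genes, HsIr25a.1 was number 4 in likeness to HsIr25a.2, and HsIr25a.2 was number 10 for HsIr25a.1. The gene most like HsIr25a.1 was LOC105183585 (r = 0.97), at 407, 326 and 140 CPM on average in homozygotes, heterozygotes and wild type. For HsIr25a.2 it was LOC105183622 (r = 0.97), for HsIr8a LOC105185343 (r = 0.87), and for HsIr76b LOC105188707 (r = 0.88). These rankings depend on the measure. With Spearman in place of Pearson, the 5 genes most alike shared 2 for HsIr8a, 2 for HsIr25a.1, 0 for HsIr25a.2 and 1 for HsIr76b. As many as 104 genes had r above 0.9 with HsIr25a.1, and 51 with HsIr25a.2. HsIr8a had r = 0.01 with HsIr25a.1 and 0.25 with HsIr76b.

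The co-receptors were set beside the other 19 Ir genes, which include the tuning receptors they serve. Of these 15 were tested, and against controls 8 rose in homozygotes and 2 fell, where 18.8% and 25% of all genes did. Among the conserved Irs, whose names place them in receptor groups shared with other insects, 5 of 7 rose, led by HsIr75f.3 (1.24 log2 units), HsIr93a (1.09) and HsIr75f.1 (0.95). In Drosophila the Ir75 receptors sense acids with Ir8a, and Ir93a acts with Ir25a in humidity and temperature sensing. Among the 12 divergent genes 8 were tested, 3 rose, led by HsIr312 (1.42), and HsIr308 and HsIr309 fell (by 1.55 and 1.15). HsIr312 had only 4 to 19 reads in control libraries, and its homozygote and control ranges overlapped. HsIr308 was at 3.40 to 7.62 CPM in homozygotes and 8.59 to 64.3 CPM in controls. HsIr309 was at 4.88 to 12.4 CPM and 10.8 to 55.2 CPM, so its ranges overlapped. For both, the batch 1 library was the highest of each genotype. The median was 0.81 over the tested genes other than the co-receptors.

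HsIr75f.3 was at 14.2, 29.9 and 32.6 CPM in homozygotes (lowest, median and highest), against 7.80 to 17.3 CPM in heterozygotes and 8.89 and 16.3 CPM in wild type. HsIr93a, the partner of Ir25a in flies, was at 15.1, 31.1 and 35.9 CPM in homozygotes, against 16.4 to 20.7 CPM in heterozygotes and 9.81 and 14.8 CPM in wild type. Homozygote replicate 6 was the lowest of its group for both.

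Between heterozygotes and wild type, 1 of the 15 other tested Ir genes was called, where 9.71% of all genes were called higher and 8.14% lower. HsIr310, a divergent receptor, was 1.67 log2 units higher (adjusted p = 0.011, edgeR), at 3.27 to 4.05 CPM in heterozygotes and 1.09 and 1.20 CPM in wild type. Those wild-type values rested on only 5 and 17 reads. The median was 0.17 over the 7 conserved Irs and 0.47 over the 8 tested divergent Irs. It was 0.45 over all 15, against 0.73 over the 4 co-receptors and 0.03 over all genes.

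**Figure D5:**
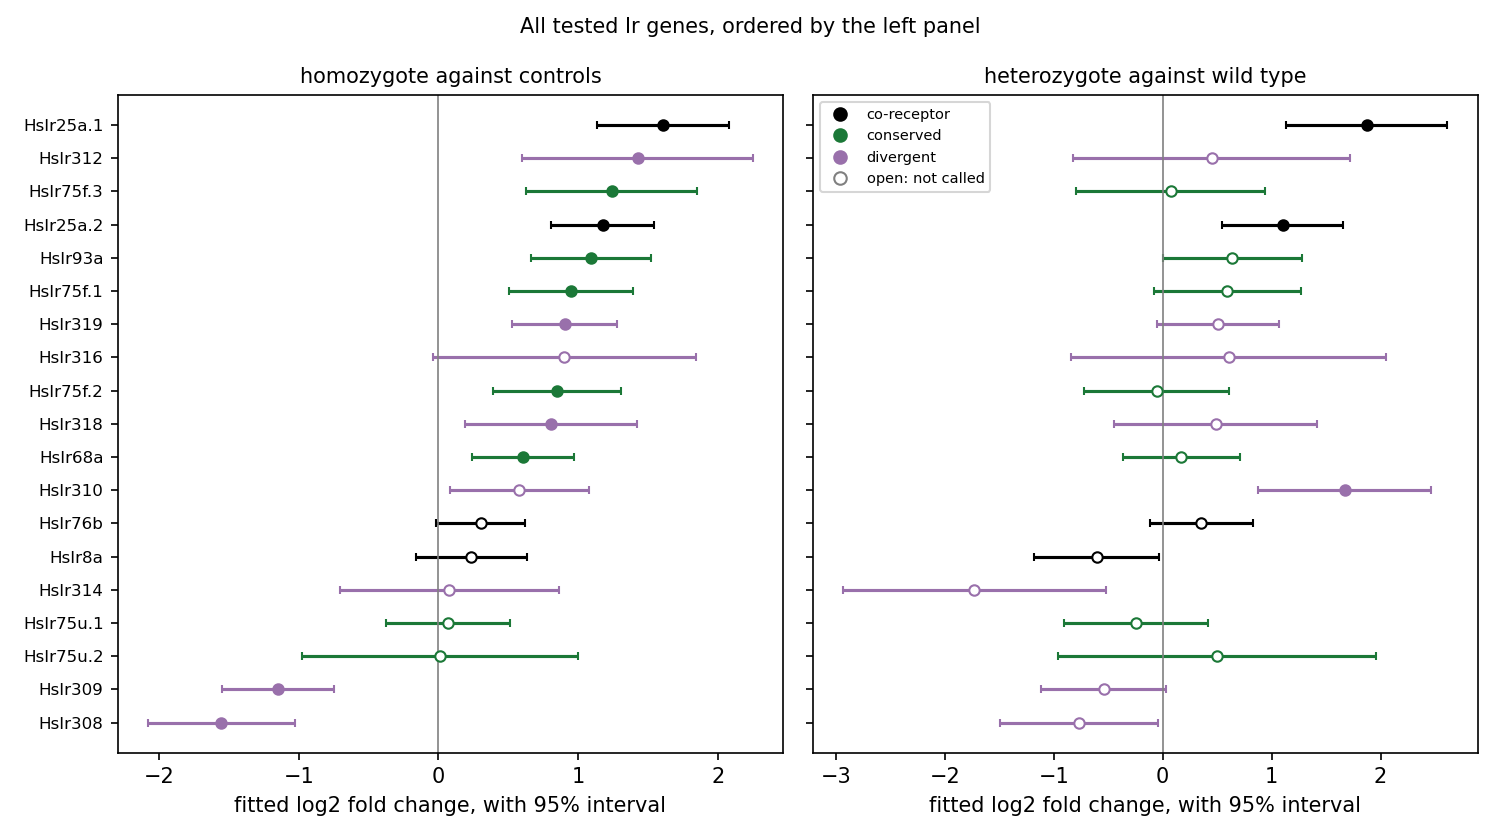
Fitted log2 fold change with 95% interval of the 19 tested Ir genes, co-receptors in black, conserved receptors in green and divergent receptors in purple; filled points passed an adjusted p of 0.05. In homozygotes against controls 10 genes were called higher and 2 lower, and in heterozygotes against wild type HsIr25a.1, HsIr25a.2 and HsIr310 were called higher.

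Markers of antennal cell types also moved with genotype, and their part in the co-receptor values was not tested. Fewer cells of a type and less RNA per cell cannot be told apart in whole antennae. The summed level of 4 neuron markers (nSyb, fne, Syt1 and onecut) was 556 to 1262 CPM in homozygotes, against 1612 to 2213 CPM in heterozygotes and 1334 to 1801 CPM in wild type. These 4 did not move alike. In homozygotes against wild type, nSyb (-1.60 log2 units) and onecut (-1.28) were called lower, and fne (-0.34) and Syt1 (-0.26) were not called. In heterozygotes against wild type, onecut (1.31) and Syt1 (0.64) were called higher, and nSyb (0.35) and fne (0.15) were not called. Rh50, which marks ammonia-sensing neurons, was at 77.2 to 109 CPM in homozygotes, 26.5 to 63.0 CPM in heterozygotes and 21.1 to 23.9 CPM in wild type, the same order as the Ir25a genes. The mechanosensory marker nompC was at 13.1 to 20.6 CPM in homozygotes, 7.62 to 11.4 CPM in heterozygotes and 20.9 to 24.8 CPM in wild type, and like HsIr8a was lowest in heterozygotes. The muscle gene Mhc was at 3109 to 8554 CPM in homozygotes, 603 to 4816 CPM in heterozygotes and 280 to 1052 CPM in wild type. Of 14 markers, 4 rose and 5 fell in homozygotes against controls, where 18.8% of all genes tested rose and 25% fell, and none was at 0 in any library.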

How the data were processed

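Antennal RNA was sequenced in 12 libraries (7 homozygote, 3 heterozygote, 2 wild type). The authors deposited raw read counts per gene, made with STAR 2.6.1d and its gene counting option on their own annotation, and DESeq2 1.34.0 is also named in the submitters' notes. Their normalized table was not used. STAR counts a read only if it maps once. Any reads shared by HsIr25a.1 and HsIr25a.2, which the study places on the same scaffold, would not be counted. Whether the pair shares reads was not examined, so the level of each is uncertain. The summed pair was also tested, but it adds the same counted reads and would not recover any shared ones. Lines naming no gene (20.7% to 29.7% of counted reads) were left out. The unstranded column was used, so reads where genes on opposite strands overlap cannot be assigned. For the 4 co-receptors, the strand counts summed to the unstranded count in all 12 libraries.

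Genes with a mean count of at least 10 were tested with edgeR 4.0.16 (limma 3.58.1, R 4.3.3, quasi-likelihood, TMM scaling) in 1 model of all 12 libraries with genotype and sequencing batch. Calls were made at an adjusted p under 0.05. The fit was tested on simulated data. Ratios used counts plus 0.5 and exact permutation tests (scipy 1.17.1). Named genes were the 4 co-receptors, HsOrco, up to 4 called rises and 4 called falls among the other Ir genes in homozygotes against controls and in heterozygotes against wild type, the markers, and the 5 genes most like each co-receptor, of which the first is named. Members and lists were chosen with earlier results of these data known. No library of a genotype was a duplicate of another. Alternatives were library totals, DESeq2 size factors, DESeq2 1.42.0, no count filter, no batch term, batch 2 alone, a replicate block, only the libraries of the groups compared, and each library left out. Ratios were also run with 5 counts added in place of 0.5. Gene lengths and sequences were not used here, so levels were not compared between genes.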

Additional observations from a re-analysis of the deposited data

Results flagged for a closer look

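In the 7 homozygote libraries, 3 values stood far from the others of their group, by Dixon's gap test at 95%, which chance meets in about 1 group in 20. HsIr8a was at 115 CPM in homozygote replicate 5, against 78.4 CPM in the next library. HsOrco was at 157 CPM in the same library, against 45.0 CPM in the next. The log2 ratio of HsIr25a.2 to HsIr76b was 2.49 in homozygote replicate 1, against 1.88 in the next, and this was the homozygote library of batch 1.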

How the results depend on the processing

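The calls of HsIr25a.1 and HsIr25a.2 in homozygotes against controls and against wild type held under every alternative run. Between homozygotes and heterozygotes, HsIr25a.2 was no longer called with library totals (0.52), without the batch term (0.47), in batch 2 alone (0.66) or with the replicate block and batch (0.68, adjusted p = 0.052), and ranged from 0.51 to 0.71 with a library left out. HsIr25a.1 became called with RLE scaling (0.71) and with DESeq2 (0.72), ranging from 0.60 to 0.75 with a library left out. The summed Ir25a pair, most of whose reads are HsIr25a.2, was called (0.63). HsIr8a became called with DESeq2 (0.58), ranging from 0.41 to 0.59. HsIr76b, not called, was 0.025 with library totals and 0.033 to 0.21 with a library left out. In heterozygotes against wild type, HsIr25a.1 was not called with those libraries alone (1.82; 1.82 to 1.95 with a library left out), nor HsIr25a.2 without the batch term (1.03), in batch 2 (0.99) or with those libraries alone (1.05; 1.01 to 1.22 left out). HsIr8a ranged from -0.74 to -0.50 there. Against wild type in homozygotes, HsIr8a turned positive in batch 2 (0.046) and ranged from -0.21 to 0.028, and HsIr76b from 0.44 to 0.50. The cause of these changes was not tested.

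Counts of genes called in homozygotes against controls, homozygotes against heterozygotes, homozygotes against wild type and heterozygotes against wild type were 4712, 2468, 4816 and 1917. They were 3037, 1486, 2966 and 721 without the batch term and 2747, 1212, 3080 and 866 with the replicate block and batch. The labels give no pairing by number, and same-numbered libraries did not all deviate together (correlations of deviations from -0.54 to 0.52 about group means, and from -0.35 to 0.77 about group means and batch). This cannot decide on pairing, since the 2 wild-type deviations mirror each other and same-numbered libraries can be of different batches. The last count was 3594 in batch 2 alone and 390 with those libraries alone. With a library left out, the counts ranged from 2971 to 6043, 1479 to 3132, 1962 to 5980 and 452 to 3908, with the extremes mostly without wild-type replicates 1 and 2.

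Ratio differences near 0 changed sign without being called. HsIr76b to HsIr8a in homozygotes against controls was -0.082 in batch 2 and from -0.16 to 0.16 with a library left out. In homozygotes against heterozygotes, HsIr25a.1 to HsIr25a.2 was -0.019 in batch 2 and from -0.021 to 0.12, HsIr25a.1 to HsIr8a from -0.091 to 0.17, and HsIr25a.2 to HsIr8a from -0.21 to 0.16. The correlation of HsIr25a.1 with HsIr76b was -0.36 without the 2 farthest libraries. Wild type has 2 libraries, and HsIr25a.1 had 12 reads in the shallower of them, which limits the precision of that value.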
